A study of Mus musculus with 10 samples.

Results

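Cd24a, Itga6, Epcam, Prom1, Dpp4, Cd44, Kit and Cd38 encode surface proteins by which prostate epithelial or progenitor cells are sorted. These 8 genes were taken as a list and followed through 10 RNA-seq libraries of sorted adult mouse prostate cells, in a table of 24553 genes. All libraries came from C57BL/6 mice aged 8 to 12 weeks, and every gate began with lineage-negative cells. The 2 stromal libraries were negative for both CD24 and CD49f. The 2 basal libraries were CD24 low and CD49f high. Luminal cells were CD24 high and CD49f low, and were divided by the antigen Sca-1 into 3 Sca-1+ luminal and 3 Sca-1- luminal libraries. The protocols given for all libraries include a culture step, with no word on whether sorted cells went through it. Nor do they state that libraries with the same gate were made from different mice. The p-values below therefore measure the spread between libraries, which may be technical.

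The prostate epithelium has a luminal layer of secretory cells and a basal layer that is anchored to the basement membrane through integrins, with fibroblasts and smooth muscle around it. Stem and progenitor cells are not known by a marker of their own in this tissue, so they are enriched by combinations of surface antigens. CD24 and CD49f (integrin alpha 6, from Itga6) divide stromal, basal and luminal cells, EpCAM marks epithelium, and CD133 (Prom1), CD26 (Dpp4), CD44, CD117 (Kit) and CD38 have each been used to narrow a gate further. As the gates of these libraries were drawn on the proteins of Cd24a and Itga6, the RNA of those genes checks the sort and is not an independent result.

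Values are FPKM (sequenced fragments divided by transcript length and by the library's mapped fragments) summed over the transcripts of a gene. Depth read from the steps of low values came to 20.4 to 27.3 M (mega) fragments per library, and 9789 to 11300 genes reached 1 FPKM. Libraries of a group had log2 correlations across genes of at least 0.963 in the stromal, 0.975 in the basal and 0.936 in the Sca-1- luminal group. The Sca-1+ luminal group was looser, with 0.840 between its replicates 1 and 3. Its summed level of 10 fibroblast markers was 5461 FPKM in replicate 1, 2812 FPKM in replicate 2 and 394 FPKM in replicate 3, against 5876 to 7511 FPKM in stromal, 511 to 693 FPKM in basal and 77.6 to 141 FPKM in Sca-1- luminal libraries. All 10 were called higher in Sca-1+ luminal than in Sca-1- luminal libraries (median log2 change 4.63), and none was at 0 in all libraries of any group. Col1a1, a defining fibroblast collagen, had 359.7, 189.8 and 22.4 FPKM in these replicates. The sum of 9 basal markers was 5607 to 7707 FPKM in basal libraries and at most 656 FPKM elsewhere. The sum of 8 luminal markers was 107 to 423 FPKM in stromal, 3428 to 4616 FPKM in basal, 2641 to 8681 FPKM in Sca-1+ luminal and 2400 to 9278 FPKM in Sca-1- luminal libraries, so it set the stromal group apart and did not divide basal from luminal cells. The Sca-1 gene Ly6a had 677 to 2301 FPKM in Sca-1+ luminal and 19.9 to 82.8 FPKM in Sca-1- luminal libraries. The sum of 10 leukocyte markers was 14.3 to 18.4 FPKM in stromal, 8.05 to 17.7 FPKM in basal, 190 to 347 FPKM in Sca-1+ luminal and 107 to 501 FPKM in Sca-1- luminal libraries. Cd52 was the largest part of each luminal sum, with means of 5.86, 6.46, 232 and 318 FPKM in those 4 groups, while Ptprc, the common leukocyte antigen, stayed at or under 0.338 FPKM in every library. The part of leukocytes in the values of the 8 genes was not tested.

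Tests were run with limma on log2(FPKM + 1) over the 12437 genes that reached 1 FPKM in at least 2 libraries, with p-values adjusted by Benjamini-Hochberg over all of them and called under 0.05. All 8 genes passed that filter, but Kit did so only through the 3 Sca-1+ luminal libraries and Cd38 only through those and stromal replicate 2, so counts over the 8 are read as descriptions. Between Sca-1+ luminal and Sca-1- luminal libraries 3 of 8 were called, where 35.1% of all genes tested were called. Between basal and Sca-1- luminal libraries it was 5 of 8 against 46.1%, and between basal and Sca-1+ luminal libraries 4 of 8 against 19.8%. Between stromal and Sca-1- luminal libraries it was 6 of 8 against 52.6%, between stromal and Sca-1+ luminal libraries 3 of 8 against 13.3%, and between stromal and basal libraries 6 of 8 against 22.5%. These comparisons share libraries, so their counts are not independent of each other. Cd24a and Itga6, on whose proteins the gates were drawn, are among the 8, so the counts include checks of the sort. In stromal against Sca-1+ luminal libraries the 3 called were Cd24a, Itga6 and Epcam. In RNA from whole sorted populations, fewer cells that express a gene and less of its RNA per cell cannot be told apart.

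**Figure D1:**
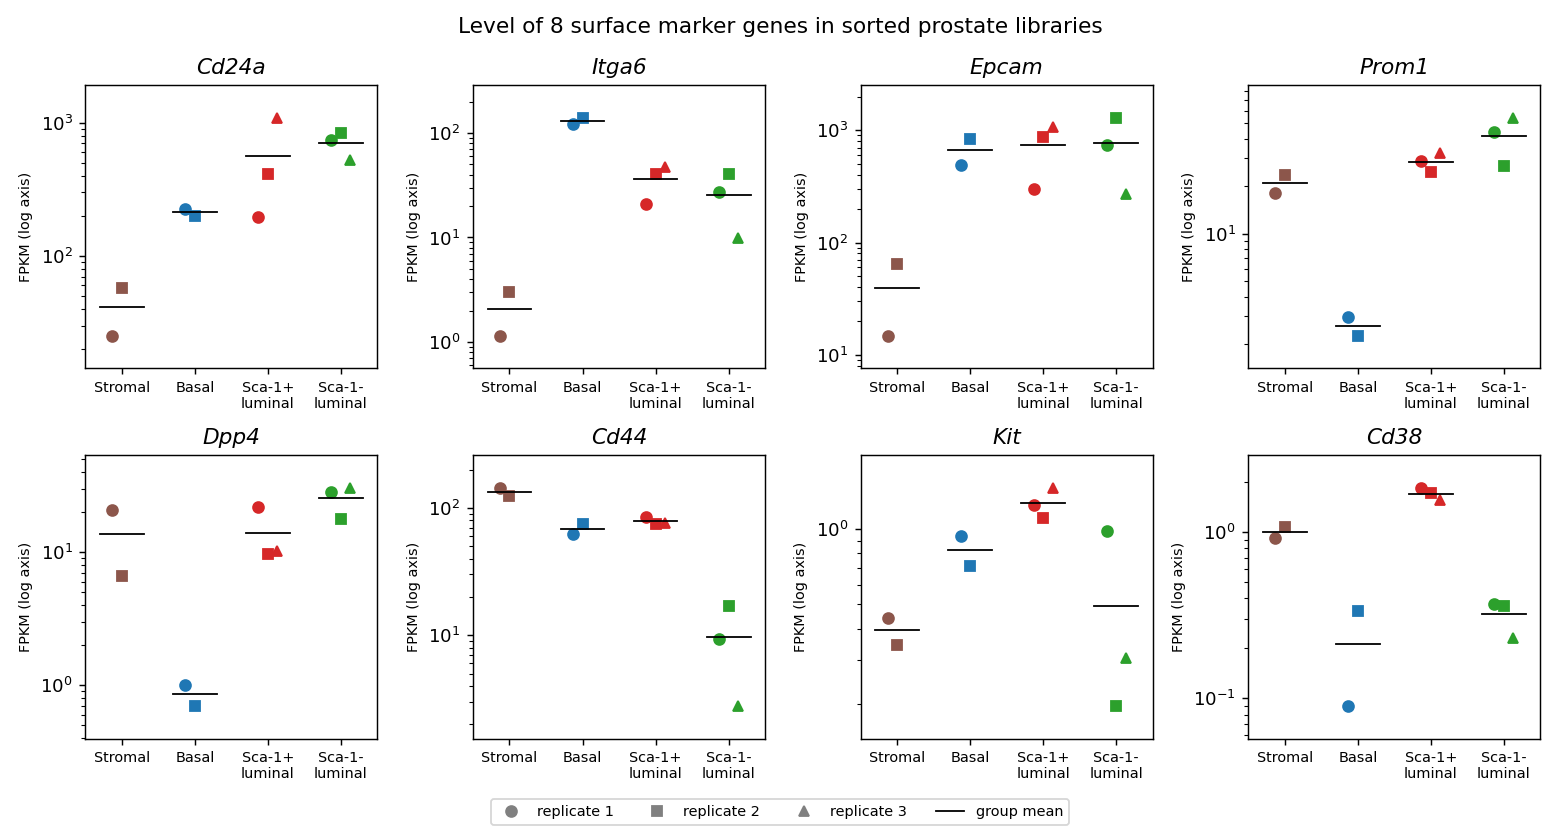
FPKM of each gene on a log axis in the 2 stromal, 2 basal, 3 Sca-1+ luminal and 3 Sca-1- luminal libraries, with symbols for replicates and a bar for the group mean. Cd24a and Epcam are lowest in stromal libraries, Prom1 and Dpp4 in basal libraries, and Cd44 in Sca-1- luminal libraries, while Kit and Cd38 stay under 2 FPKM throughout.

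**Figure D2:**
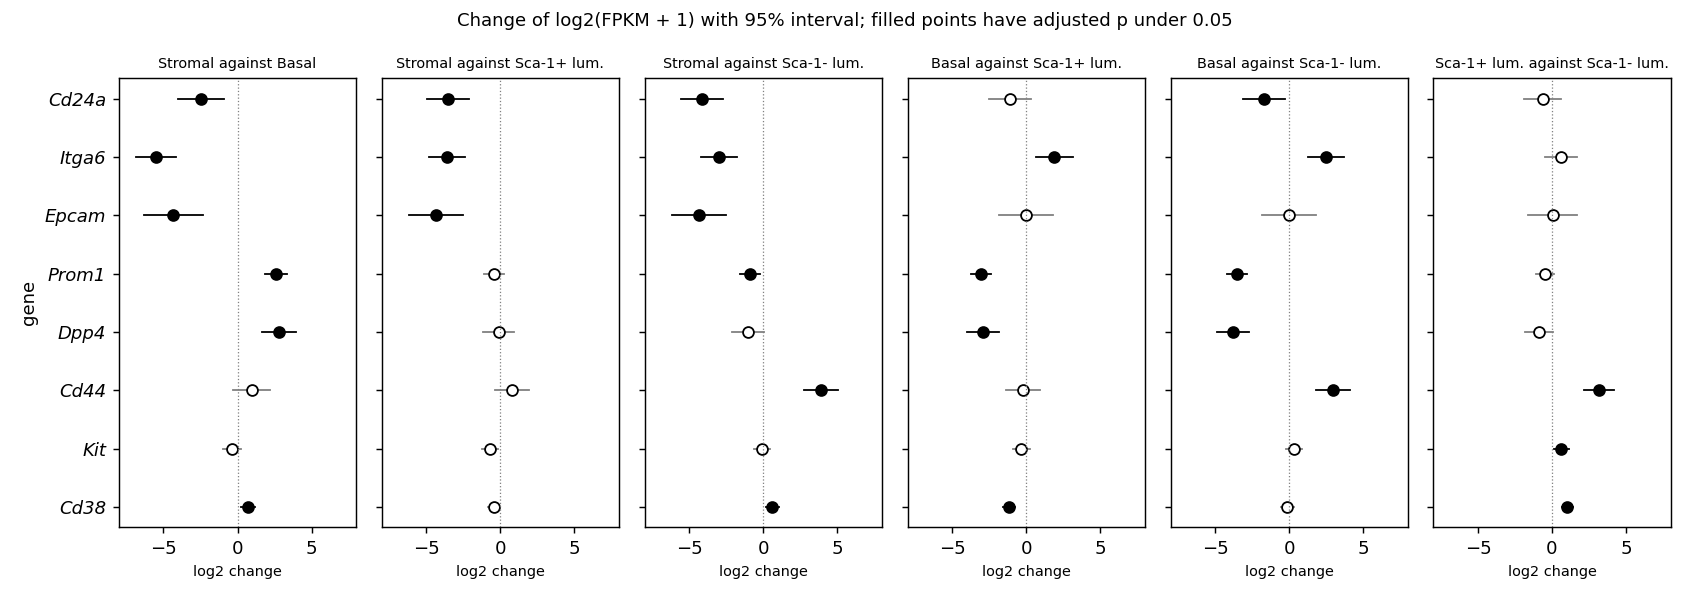
Difference of each gene in the 6 comparisons on the log2(FPKM + 1) scale, with 95% intervals from limma; filled points have an adjusted p under 0.05. Cd44 stands apart from 0 in each comparison with Sca-1- luminal libraries, and Prom1 and Dpp4 in each comparison with basal libraries. The added 1 FPKM compresses low values such as those of Kit and Cd38.

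Cd24a encodes a small glycosylated protein held in the membrane by a lipid anchor, and lies at chr10:43578284-43584265 on the plus strand of mm10. It had 25.2 and 57.0 FPKM in stromal, 226 and 199 FPKM in basal, 197, 412 and 1091 FPKM in Sca-1+ luminal, and 743, 838 and 529 FPKM in Sca-1- luminal libraries. The stromal libraries lay below all others, whereas the Sca-1+ luminal values ran from the level of the basal libraries to the highest of all 10. In stromal libraries Cd24a was lower than in Sca-1- luminal libraries by a log2 change of -4.15 (limma, adjusted p = 0.000669), than in Sca-1+ luminal libraries by -3.52 (adjusted p = 0.00629) and than in basal libraries by -2.45 (adjusted p = 0.0301). The gate called luminal cells CD24 high and basal cells CD24 low, and Cd24a RNA was lower in basal than in Sca-1- luminal libraries (log2 change -1.70, limma adjusted p = 0.0497). That call sat at the threshold: without any of 8 libraries (all but Sca-1+ luminal replicates 1 and 3) the adjusted p was 0.056 to 0.185, and over all 19 alternatives it was 0.00431 to 0.185. It was also lost with pseudocounts of 0.1 and 5, no filter, median-of-ratios scaling and all transcript lengths, at adjusted p of 0.0506 to 0.098. The stromal against basal call was lost when any of 5 libraries was left out (both stromal and both basal libraries and replicate 1 of Sca-1- luminal cells), at adjusted p of 0.0504 to 0.19 among alternatives of 0.00253 to 0.19. With no filter that call was lost as well (adjusted p = 0.0644). Without stromal replicate 1 the stromal against Sca-1+ luminal change was -2.95 (adjusted p = 0.0857, alternatives 0.000325 to 0.0857), and a fit of those 2 groups alone also lost its call (adjusted p = 0.073).

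Between Sca-1+ luminal and Sca-1- luminal libraries the Cd24a change was -0.63 (95% interval -1.89 to 0.63, limma adjusted p = 0.399), and it stayed negative whichever single library was left out. Without Sca-1+ luminal replicate 3, where Cd24a was highest, the change was -1.27 with an adjusted p of 0.0338. With that replicate alone it was 0.66 (adjusted p = 0.376, alternatives 0.0338 to 0.956). Against the same replicate alone, basal libraries were lower by -2.36 (adjusted p = 0.0165, alternatives 0.0165 to 0.523), whereas against all 3 Sca-1+ luminal libraries the change was -1.07 (adjusted p = 0.25). Cd24a was highest in the Sca-1+ luminal replicate with the lowest fibroblast marker sum, and lowest in that with the highest. The part of those markers in the Cd24a values was not tested. Of 5 listed CD24 partners 4 were in the table and 2 were tested, and neither was called by limma in any comparison (at an unadjusted p under 0.05, 1 of the 2 passed when stromal was set against Sca-1+ luminal and against basal libraries, and 0 in the other comparisons).

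Itga6 encodes the integrin alpha 6 chain, which pairs with beta 4 in hemidesmosomes or with beta 1 and binds laminin (chr2:71745616-71858416, plus strand). It had 1.15 and 2.99 FPKM in stromal, 122 and 140.2 FPKM in basal, 21.1, 40.2 and 47.5 FPKM in Sca-1+ luminal, and 27.3, 40.2 and 9.86 FPKM in Sca-1- luminal libraries. Basal libraries stood above and stromal libraries below all others, and the luminal groups overlapped. The order of the group means was basal, Sca-1+ luminal, Sca-1- luminal and stromal. Its log2 change was 2.50 in basal against Sca-1- luminal libraries (limma, adjusted p = 0.00474) and -5.49 in stromal against basal libraries (adjusted p = 0.000545). Stromal libraries were also lower than Sca-1- luminal (-2.99, adjusted p = 0.00172) and Sca-1+ luminal libraries (-3.59, adjusted p = 0.00304). That last call was lost without stromal replicate 1 (-3.15, adjusted p = 0.0533, alternatives 0.00157 to 0.0533). In basal against Sca-1+ luminal libraries the change was 1.90 (adjusted p = 0.0375), and it was lost when any of 5 libraries was left out (both basal libraries, replicates 1 and 2 of Sca-1+ luminal cells and replicate 1 of Sca-1- luminal cells), at adjusted p of 0.0581 to 0.195 among alternatives of 0.0143 to 0.218. With no filter it was lost too (adjusted p = 0.0796). With Sca-1+ luminal replicate 3 alone the basal against Sca-1+ luminal change was 1.44. Within the Sca-1+ luminal group Itga6 rose from replicate 1 to replicate 3 while the fibroblast marker sum fell. The part of those markers in the Itga6 values was not tested. The luminal groups did not differ by the test (0.60, 95% interval -0.49 to 1.70, adjusted p = 0.355).

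Integrin alpha 6 exists with either of 2 cytoplasmic tails, known as alpha 6A and alpha 6B, which depend on an alternative exon of 130 nt at chr2:71853534-71853663. The joined sequences below show the choice, with the shared upstream exon in lower case and the start of the next exon in capitals. The shared 30 bases are chr2:71849477-71849506, and the capitals are chr2:71853534-71853563 with the exon and chr2:71855854-71855883 without it (GENCODE M21, GRCm38, plus strand).
Itga6 with the alternative exon: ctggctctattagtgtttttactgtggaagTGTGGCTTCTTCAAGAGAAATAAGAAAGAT
Itga6 without the alternative exon: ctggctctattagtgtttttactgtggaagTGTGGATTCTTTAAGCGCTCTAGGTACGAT

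Transcripts with the exon made up 73.1% and 68.3% of Itga6 FPKM in basal, 65.6%, 52.6% and 79.4% in Sca-1+ luminal, and 60.7%, 52.9% and 65.4% in Sca-1- luminal libraries. They made up 100% and 46.6% in the stromal libraries, where the gene rested on an estimated 164 and 391 fragments. The groups overlapped, and both tails were present in every epithelial library. Shares of this kind come from the model by which Cufflinks divides fragments over transcripts, and were not tested.

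Of 10 listed partners and ligands of integrin alpha 6 that were tested, 7 were higher, 0 lower and 3 not called in basal against Sca-1- luminal libraries, where 46.1% of all genes were called, with a median log2 change of 3.51 where the median of all genes tested was -0.05. Col17a1, a hemidesmosome collagen, averaged 159 FPKM in basal and 2.46 FPKM in Sca-1- luminal libraries (log2 change 5.74, limma adjusted p = 0.000102). Lamb3 and Lama3, which encode laminin chains, changed by 5.34 and 4.55 in the same comparison. Against Sca-1+ luminal libraries 7 of the 10 were higher and 0 lower in basal libraries, where 19.8% of all genes tested were called. Between the luminal groups 5 of the 10 were higher on the Sca-1+ side and 1 was lower, where 35.1% of all genes tested were called. Among the higher were the pairing chains Itgb4 (mean 21.2 against 3.51 FPKM, log2 change 1.99, limma adjusted p = 0.0187) and Itgb1 (192 against 55.5 FPKM, 1.74, adjusted p = 0.00249), which averaged 225 FPKM in stromal libraries. Itgb4 had 7.0, 15.2 and 41.3 FPKM in replicates 1, 2 and 3 of the Sca-1+ group, highest where the fibroblast markers were lowest. In stromal against basal libraries 0 were higher and 7 lower, where 22.5% of all genes tested were called. Itgb4 was listed at 0 in stromal replicate 1 and at 0.929 FPKM in replicate 2.

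Epcam encodes the epithelial cell adhesion molecule, which associates with claudin 7 (chr17:87635979-87651129, plus strand). It had 14.8 and 64.0 FPKM in stromal, 495 and 842 FPKM in basal, 299, 878 and 1064 FPKM in Sca-1+ luminal, and 736, 1298 and 271 FPKM in Sca-1- luminal libraries. Only the stromal libraries stood apart, and the 3 epithelial groups overlapped widely. Within the Sca-1+ luminal group Epcam rose from replicate 1 to replicate 3 while the fibroblast marker sum fell. The part of those markers in the Epcam values was not tested. Stromal libraries were lower by log2 changes of -4.32 against Sca-1- luminal (limma, adjusted p = 0.00198), -4.35 against Sca-1+ luminal (adjusted p = 0.00763) and -4.34 against basal libraries (adjusted p = 0.00812). Without stromal replicate 1 the change against Sca-1+ luminal libraries was -3.33 (adjusted p = 0.0991, alternatives 0.00296 to 0.0991) and that against basal libraries was -3.31 (adjusted p = 0.0679, alternatives 0.00341 to 0.0679). Without basal replicate 2 the change against basal libraries was -3.95 (adjusted p = 0.0643). A fit of the stromal and Sca-1+ luminal groups alone also lost its call (adjusted p = 0.0518). Among epithelial groups the changes were 0.04 in Sca-1+ luminal against Sca-1- luminal (95% interval -1.59 to 1.66, adjusted p = 0.976), 0.02 in basal against Sca-1- luminal (-1.8 to 1.84, adjusted p = 0.991) and -0.02 in basal against Sca-1+ luminal libraries (-1.84 to 1.8, adjusted p = 0.992). Those intervals hold changes of over 3-fold in either direction.

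The genes whose centred profile over the 10 libraries lay closest to that of Epcam were the luminal keratins Krt8 and Krt18 and Cldn7, with root mean square log2 differences of 0.31, 0.37 and 0.43. Of 11 listed Epcam partners and processing genes tested, 2 were higher and 5 lower when stromal was set against Sca-1- luminal RNA, where 52.6% of all genes tested were called. Spint2 and Spint1, which inhibit the matriptase encoded by St14, changed by -4.82 and -4.10, Cldn7 by -4.28 and St14 by -4.15.

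Prom1 encodes prominin 1 (CD133), a protein with several membrane spans that sits in microvilli and other protrusions of the membrane (chr5:43993620-44102032, minus strand). It had 18.2 and 23.5 FPKM in stromal, 2.97 and 2.27 FPKM in basal, 29.1, 24.5 and 32.4 FPKM in Sca-1+ luminal, and 44.3, 26.9 and 54.3 FPKM in Sca-1- luminal libraries. Basal libraries were the lowest by a wide margin, stromal libraries lay just below both luminal groups, and the luminal groups overlapped. Prom1 was lower in basal than in Sca-1- luminal libraries (log2 change -3.51, limma adjusted p = 3.47e-05) and than in Sca-1+ luminal libraries (-3.03, adjusted p = 0.00041), and higher in stromal than in basal libraries (2.59, adjusted p = 0.00125). These 3 calls held in all 19 alternatives. Stromal libraries were lower than Sca-1- luminal libraries by -0.93 (adjusted p = 0.0268), a call that was lost when any of 4 libraries was left out (both stromal libraries and Sca-1- luminal replicates 1 and 3), at adjusted p of 0.0503 to 0.167 among alternatives of 0.00575 to 0.167. A fit of those 2 groups alone also lost it (adjusted p = 0.0539). The luminal groups differed by -0.48 (95% interval -1.09 to 0.12, adjusted p = 0.183). Without Sca-1- luminal replicate 2 that change was -0.76 and was called (adjusted p = 0.0402), and with median-of-ratios scaling it was -0.69 and also called (adjusted p = 0.039, alternatives 0.039 to 0.647).

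Of 12 listed Prom1 transcripts 3 were above 0 in some library, and they began at 2 positions 6968 nt apart. The share from the downstream start was listed at 0 in both stromal libraries. It was 51.2% and 87.6% in basal, 30.1%, 33.4% and 32.9% in Sca-1+ luminal, and 38.0%, 32.7% and 43.1% in Sca-1- luminal libraries. The stromal libraries lay below and the basal libraries above all luminal libraries, although the basal shares rested on an estimated 234 and 172 fragments for the whole gene. The main downstream transcript also lacks 2 internal exons (93 nt) of the upstream transcript, so the split does not isolate the start and was not tested. It has 0 exons that are absent from the upstream transcript. A transcript listed short at its 5' end therefore cannot be told from a second start. The 250 bases before the downstream start are shown because the listed transcripts divide there (RefSeq, GRCm38.p6, minus strand, chr5:44094769-44095018). They were not shown to act as a promoter, and end in pyrimidines and AG, as introns do. A match to TGANTCA, a pattern like the site of AP-1 factors but with any base (N) in the middle, is in capitals. The middle base here is A, and binding of AP-1 factors was not tested.
Prom1 before the downstream start: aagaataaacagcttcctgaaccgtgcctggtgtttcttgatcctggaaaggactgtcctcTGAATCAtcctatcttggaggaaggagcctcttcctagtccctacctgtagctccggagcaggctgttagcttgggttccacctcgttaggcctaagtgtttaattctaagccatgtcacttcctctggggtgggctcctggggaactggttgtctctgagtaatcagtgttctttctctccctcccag

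The TATA box TATAAA, the CCAAT box, the GC box GGGCGG and the pattern TGANTCA were searched on both strands. Only TGANTCA was found in that window, at 1 place, and 6.7% of 32851 promoter windows of the same length hold it. The window of the same length before the upstream start held TGANTCA, the CCAAT box and the GC box, 1 match each. The CCAAT box is in 33.8%, the GC box in 32.7% and the TATA box in 12.4% of all promoter windows.

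**Figure D3:**
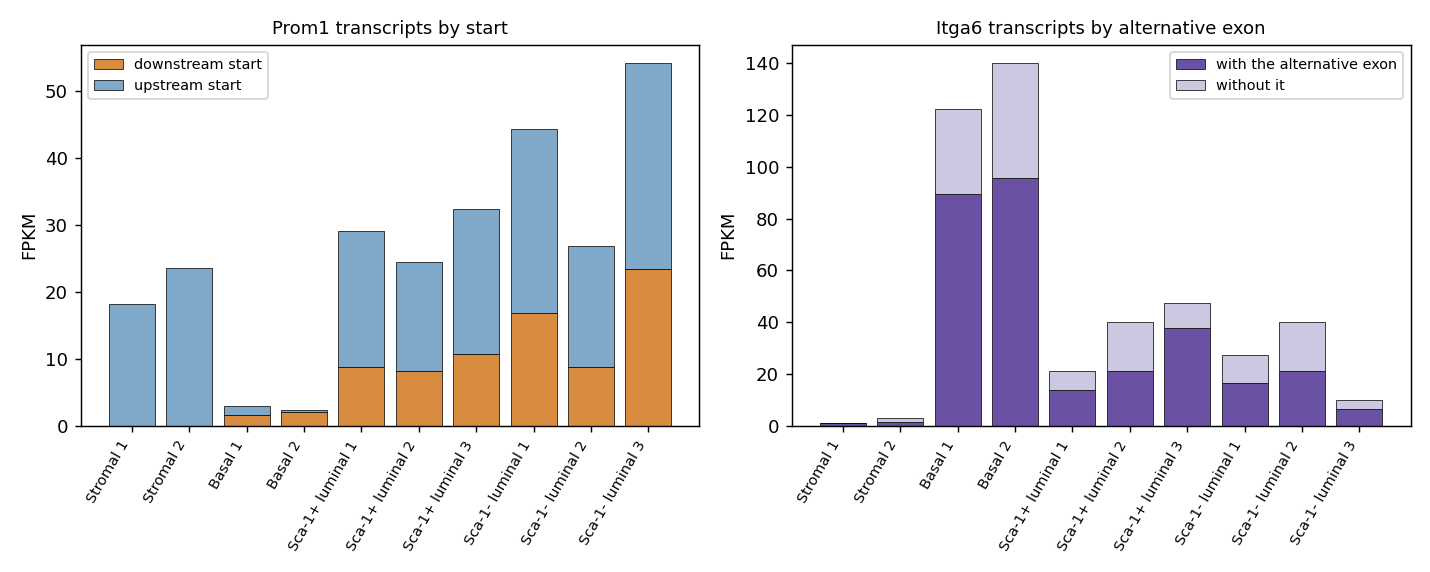
FPKM per library of Prom1 divided by transcript start (left) and of Itga6 divided by its alternative exon (right). In stromal libraries Prom1 from the downstream start is listed at 0, and basal libraries hold little Prom1 of either kind. Itga6 with the exon is the larger part in every basal and luminal library.

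The relative Prom2 had its own pattern. It had 1.72 and 2.80 FPKM in stromal, 9.05 and 6.62 FPKM in basal, 11.1, 10.6 and 1.28 FPKM in Sca-1+ luminal, and 51.5, 32.7 and 59.6 FPKM in Sca-1- luminal libraries. Sca-1- luminal libraries were thus above every other library, and Prom2 was lower in Sca-1+ luminal (log2 change -2.80, limma adjusted p = 0.00637), basal (-2.44, adjusted p = 0.0118) and stromal libraries (-3.88, adjusted p = 0.00103). Of 6 genes tested in the list of the Prom1 family and microvilli, 1 was higher and 1 lower in Sca-1+ luminal than in Sca-1- luminal libraries, where 35.1% of all genes tested were called. The higher one was Eps8, which encodes an actin-regulating protein of microvilli (40.6 against 13.6 FPKM, log2 change 1.39, limma adjusted p = 0.0179). The microvillar linkers Ezr and Slc9a3r1 were lower in the stromal group than in the Sca-1- luminal group (-2.06, adjusted p = 0.00373, and -2.52, adjusted p = 5.26e-05). Gata2, which encodes a transcription factor, had the profile closest to that of Prom1, with a root mean square log2 difference of 0.25 over 10 libraries, followed by Tmem129 (0.32) and Mkrn2 (0.33).

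Dpp4 encodes CD26, a membrane peptidase that cuts dipeptides from the amino end of chemokines and hormones (chr2:62330073-62412231, minus strand). It had 20.7 and 6.59 FPKM in stromal, 1.01 and 0.70 FPKM in basal, 21.9, 9.63 and 10.3 FPKM in Sca-1+ luminal, and 28.5, 17.8 and 30.5 FPKM in Sca-1- luminal libraries. As with Prom1, both basal libraries lay far below the rest, and the other 3 groups overlapped. Dpp4 was lower in basal than in Sca-1- luminal (log2 change -3.81, limma adjusted p = 0.000243) and Sca-1+ luminal libraries (-2.92, adjusted p = 0.00371), and higher in stromal than in basal libraries (2.80, adjusted p = 0.0055). These 3 calls held in all 19 alternatives. No other comparison of Dpp4 was called: the change was -0.89 in Sca-1+ luminal against Sca-1- luminal libraries (95% interval -1.85 to 0.07, adjusted p = 0.129), -0.13 in stromal against Sca-1+ luminal libraries (-1.20 to 0.95, adjusted p = 0.885) and -1.02 in stromal against Sca-1- luminal libraries (-2.09 to 0.06, adjusted p = 0.101). Without stromal replicate 1, which had the higher stromal value, the last was -1.77 and was called (adjusted p = 0.0245, alternatives 0.0245 to 0.693). The stromal against Sca-1+ luminal change turned to 0.63 without stromal replicate 2 and to 0.23 without Sca-1+ luminal replicate 1, uncalled in both (adjusted p = 0.452 and 0.757, alternatives 0.353 to 0.947).

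Cxcl12, a chemokine that CD26 cleaves, had a different order: it averaged 151 FPKM in stromal, 20.8 FPKM in basal, 66.5 FPKM in Sca-1+ luminal and 2.97 FPKM in Sca-1- luminal libraries. It was higher in Sca-1+ luminal than in Sca-1- luminal libraries (log2 change 3.70, limma adjusted p = 0.00216), with the fibroblast marker sums given above moving the same way, and their part was not tested. Of 10 genes tested in the Dpp4 family and partner list, 4 rose and 1 fell in stromal libraries relative to Sca-1- luminal libraries, where 52.6% of all genes tested were called. Fap, the closest relative of Dpp4 and a fibroblast peptidase, averaged 1.65 FPKM in stromal and 0.0894 FPKM in Sca-1- luminal libraries (1.28, adjusted p = 0.00314). In stromal against Sca-1+ luminal libraries none of the 10 was called by limma (3 of the 10 at an unadjusted p under 0.05), where 13.3% of all genes tested were called. The profile closest to that of Dpp4 belonged to Ace, another membrane peptidase (root mean square log2 difference 0.32 over 10 libraries), then to Ccpg1 (0.32) and Naglu (0.41).

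Cd44 encodes the main receptor for hyaluronan (chr2:102811141-102901665, minus strand). It had 144 and 124 FPKM in stromal, 62.3 and 74.9 FPKM in basal, 85.5, 75.0 and 76.2 FPKM in Sca-1+ luminal, and 9.34, 16.8 and 2.79 FPKM in Sca-1- luminal libraries. The Sca-1- luminal libraries were below all others and the stromal libraries above all others, while Sca-1+ luminal values lay at or just above those of basal libraries. Cd44 was higher in Sca-1+ luminal (log2 change 3.17, 95% interval 2.15 to 4.19, limma adjusted p = 0.00144), basal (2.97, adjusted p = 0.00133) and stromal libraries (3.92, adjusted p = 0.000317), each against Sca-1- luminal libraries. These 3 calls held in all 19 alternatives, with adjusted p of at most 0.0218. The other comparisons were not called: 0.76 in stromal against Sca-1+ luminal (adjusted p = 0.342), 0.96 in stromal against basal (adjusted p = 0.268) and -0.20 in basal against Sca-1+ luminal libraries (95% interval -1.35 to 0.94, adjusted p = 0.806). The last turned to 0.16 with median-of-ratios scaling, uncalled (adjusted p = 0.857, alternatives 0.518 to 0.961). The stromal against basal change was called without Sca-1- luminal replicate 3 (adjusted p = 0.0482) and in a fit of those 4 libraries alone (adjusted p = 0.0336, alternatives 0.0336 to 0.54).

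The total was similar in the 3 Sca-1+ luminal libraries, but the transcripts that made it up were not. Mouse Cd44 has a group of variant exons that are spliced into the stalk of the protein in many epithelia and left out in most mesenchymal and blood cells. The 6 full-length forms in the files differed by 0, 297, 399, 645, 876 and 1245 nt, which matched forms with 0, 2, 3, 5, 7 and 10 variant exons in GENCODE M21. The joined sequences below show the alternative, with the last 30 bases before the junction in lower case and the shared next exon (chr2:102828581-102828610, GRCm38, minus strand) in capitals. The lower case bases are chr2:102853015-102853044 without variant exons and chr2:102831330-102831359, the end of the last variant exon, with them.
Cd44 without variant exons: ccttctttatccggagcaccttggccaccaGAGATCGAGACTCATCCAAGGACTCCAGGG
Cd44 with variant exons: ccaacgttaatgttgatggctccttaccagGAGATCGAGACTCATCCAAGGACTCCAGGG

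Forms with variant exons made up 0% of Cd44 FPKM in both stromal libraries, which were listed wholly as the form without them. They made up 84.0% and 86.6% in basal libraries and 69.7%, 57.6% and 82.6% in Sca-1- luminal libraries, where a short form took a further 27.7% of replicate 2. In the Sca-1+ luminal group they made up 0%, 37.3% and 100% in replicates 1, 2 and 3. Replicate 1 was thus like the stromal libraries and replicate 3 like the basal libraries in this respect, at totals of 85.5 and 76.2 FPKM. The fibroblast marker sum was 5461, 2812 and 394 FPKM in the same replicates. Whether cells of the fibroblast kind supplied the form without variant exons was not tested. With replicate 3 alone, Cd44 was still higher than in Sca-1- luminal libraries (log2 change 3.12, limma adjusted p = 0.0218). The shares are model estimates without a test, and a share of 0% or 100% says only that the other class is listed at 0.

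**Figure D4:**
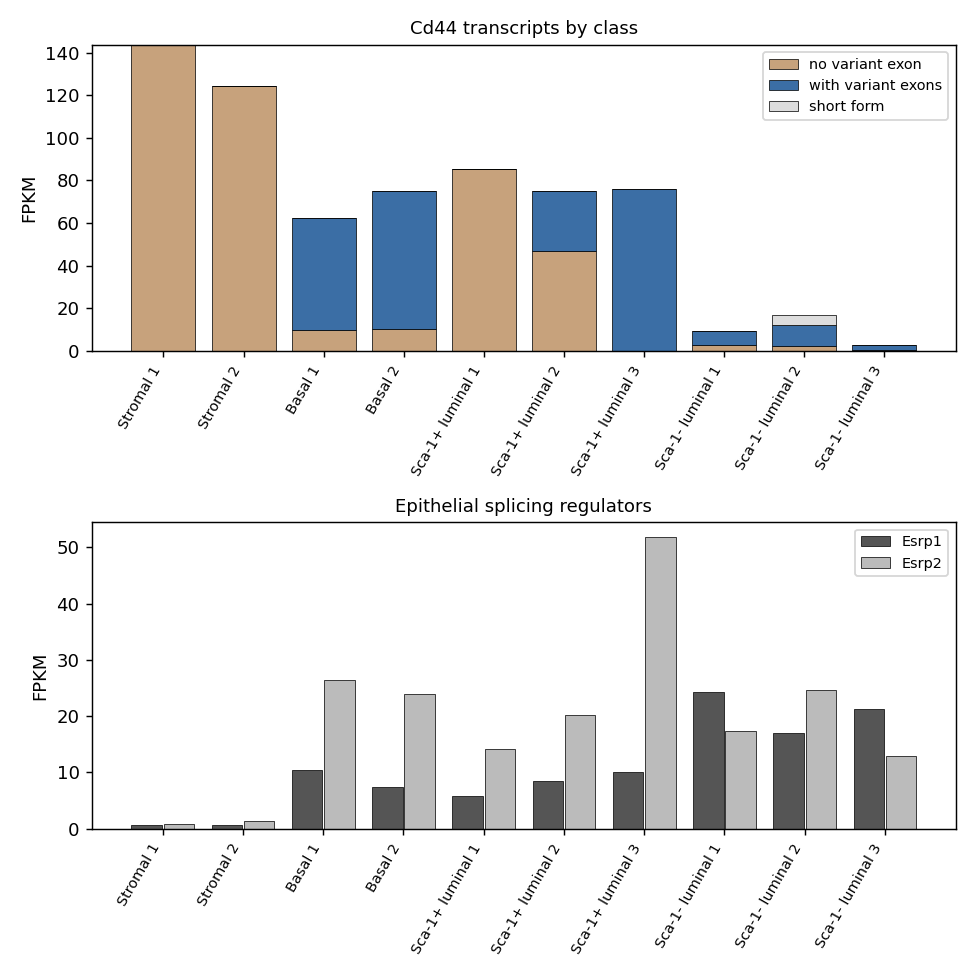
Upper panel: FPKM of Cd44 per library, divided into forms without variant exons, forms with them and a short form. Lower panel: FPKM of the splicing regulators Esrp1 and Esrp2; the stromal libraries, where variant forms are listed at 0, are under 2 FPKM for both.

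Esrp1 and Esrp2, the epithelial splicing regulators known to promote inclusion of Cd44 variant exons, were low in the stromal libraries, where no variant form was listed. Esrp1 had 0.666 and 0.714 FPKM in stromal, 10.4 and 7.39 FPKM in basal, 5.82, 8.42 and 10.1 FPKM in Sca-1+ luminal, and 24.3, 17.0 and 21.3 FPKM in Sca-1- luminal libraries. Esrp2 had 0.768 and 1.38 FPKM in stromal, 26.4 and 23.9 FPKM in basal, 14.1, 20.1 and 51.9 FPKM in Sca-1+ luminal, and 17.3, 24.6 and 12.9 FPKM in Sca-1- luminal libraries. In stromal against Sca-1- luminal libraries Esrp1 changed by -3.68 (limma, adjusted p = 2.95e-05), and in stromal against Sca-1+ luminal libraries Esrp2 changed by -3.64 (adjusted p = 0.00168). Sca-1+ luminal replicate 1, with no variant form listed, had Esrp1 and Esrp2 levels well above those of the stromal libraries.

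Has1, Has2 and Has3 encode hyaluronan synthases, and did not share an order. Has1 had 583 and 272 FPKM in stromal, 8.66 and 6.44 FPKM in basal, 413, 79.3 and 22.2 FPKM in Sca-1+ luminal, and 3.70, 1.69 and 2.41 FPKM in Sca-1- luminal libraries. Its Sca-1+ luminal values stood in the same order as the fibroblast marker sums, whose part was not tested. Has1 was higher in Sca-1+ luminal than in Sca-1- luminal libraries (log2 change 4.71, limma adjusted p = 0.00348), as was Has2 (3.36, adjusted p = 0.00557). Has3 was highest in basal libraries, with a mean of 6.00 FPKM in basal, 0.370 FPKM in Sca-1+ luminal and 0.118 FPKM in Sca-1- luminal libraries. Of 12 genes tested in the list of Cd44 ligands, partners and splicing factors, 5 were higher and 1 lower in Sca-1+ luminal than in Sca-1- luminal libraries, where 35.1% of all genes tested were called. Their median log2 change was 0.75, where that of all genes was 0.19. Mmp14, a membrane metalloprotease that can shed CD44, averaged 117 FPKM in Sca-1+ luminal and 6.62 FPKM in Sca-1- luminal libraries (3.64, adjusted p = 0.00214). It averaged 244 FPKM in stromal libraries, and within the Sca-1+ luminal group it was lowest, at 30.1 FPKM, where the fibroblast sum was lowest. In basal against Sca-1- luminal libraries 5 were higher and 1 lower, where 46.1% of all genes tested were called. Among the higher were Mmp14 (4.59) and Msn, which encodes the cytoskeletal linker moesin (4.54). The profiles closest to that of Cd44 were those of Bhlhe40, Ier5 and Nek6, with root mean square log2 differences of 0.36, 0.36 and 0.39 over 10 libraries.

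Kit encodes a receptor tyrosine kinase of stem, germ and mast cells (chr5:75574916-75656722, plus strand). It was low in every library, with 0.442 and 0.344 FPKM in stromal, 0.936 and 0.714 FPKM in basal, 1.25, 1.11 and 1.46 FPKM in Sca-1+ luminal, and 0.978, 0.196 and 0.305 FPKM in Sca-1- luminal libraries. The 3 Sca-1+ luminal values were above all others, with Sca-1- luminal replicate 1 and basal replicate 1 next. These levels rested on an estimated 20 to 180 fragments per library. The change in Sca-1+ luminal against Sca-1- luminal libraries was 0.64 (95% interval 0.15 to 1.13, limma adjusted p = 0.0466). Kit entered the test only through the 3 Sca-1+ luminal libraries, in which it was high, so that call is not independent of the filter, and with no filter the adjusted p was 0.0507. It was called in only 2 of 19 alternatives, whose adjusted p ran from 0.0186 to 0.365. It was lost without any of 9 libraries (all but Sca-1- luminal replicate 1), at adjusted p of 0.0647 to 0.124, and with quantile normalization (0.26, adjusted p = 0.365). The change in stromal against Sca-1+ luminal libraries was -0.71 (adjusted p = 0.0883) and that in basal against Sca-1+ luminal libraries was -0.32 (adjusted p = 0.377). Added to the low level, the 1 FPKM pseudocount makes these changes understate the ratio of the values.

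The summed level of 7 mast cell markers, a cell type that carries KIT, was 8.28 FPKM in Sca-1+ luminal replicate 1, 1.35 FPKM in replicate 2 and 0.0368 FPKM in replicate 3, against at most 1.54 FPKM elsewhere. Kit was highest in replicate 3, where the mast cell proteases Cpa3 and Mcpt4 were listed at 0, and the part of mast cells in the Kit values was not tested. Kitl, which encodes the KIT ligand, had 6.47 and 5.73 FPKM in stromal, 21.3 and 7.21 FPKM in basal, 9.96, 7.07 and 10.5 FPKM in Sca-1+ luminal, and 7.67, 3.97 and 4.64 FPKM in Sca-1- luminal libraries. It was called in no comparison, and came nearest in basal against Sca-1- luminal libraries (log2 change 1.12, limma adjusted p just over the 0.05 threshold). Of 11 genes tested in the Kit ligand and signalling list, 4 were higher and 1 lower in Sca-1+ luminal than in Sca-1- luminal libraries, where 35.1% of all genes tested were called. Sh2b3, which encodes an adaptor that restrains KIT signalling, changed by 1.81 (adjusted p = 0.00552), and the phosphatase gene Ptpn6 by -1.23 (adjusted p = 0.00783). Etv1, a transcription factor gene downstream of KIT in other tissues, averaged 1.72 FPKM in Sca-1+ luminal and 0.175 FPKM in Sca-1- luminal libraries (1.21, adjusted p = 0.00163). Sh2b3 and Etv1 were higher still in stromal libraries, with means of 26.1 and 2.61 FPKM, and the fibroblast markers moved the same way between the luminal groups, their part not being tested. Cab39, Itch and Dcaf12 had the closest profiles to Kit, at root mean square log2 differences of 0.11, 0.12 and 0.14, but at this level Kit itself varied by 0.35 (SD, log2) over the 10 libraries.

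Cd38 encodes a surface enzyme that consumes NAD and makes cyclic ADP-ribose (chr5:43868553-43912375, plus strand). It had 0.918 and 1.08 FPKM in stromal, 0.0903 and 0.334 FPKM in basal, 1.85, 1.71 and 1.55 FPKM in Sca-1+ luminal, and 0.372, 0.361 and 0.232 FPKM in Sca-1- luminal libraries. The groups fell in the order Sca-1+ luminal, stromal, then basal and Sca-1- luminal together, with no overlap between the first, the second and the rest. The estimated fragments behind these values ran from 6 to 141 per library. Cd38 was higher in Sca-1+ luminal than in Sca-1- luminal libraries (log2 change 1.03, 95% interval 0.65 to 1.42, limma adjusted p = 0.00263) and lower in basal than in Sca-1+ luminal libraries (-1.16, adjusted p = 0.00379). Cd38 entered the test only through the Sca-1+ luminal libraries and stromal replicate 2; with no filter the adjusted p values were 0.00196 and 0.00269. Both calls held in all 19 alternatives, with a change of 0.33 to 2.11 in the Sca-1+ luminal against Sca-1- luminal comparison, where the ends came from pseudocounts of 5 and 0.1. With Sca-1+ luminal replicate 3 alone, the library of that group with the lowest fibroblast sum, the change was 0.95 (adjusted p = 0.0243). In basal against Sca-1- luminal libraries the change was -0.13 (95% interval -0.56 to 0.30, adjusted p = 0.622).

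Stromal libraries were higher in Cd38 than Sca-1- luminal libraries by 0.60 (limma, adjusted p = 0.0256) and than basal libraries by 0.73 (adjusted p = 0.0341), and both calls depended on single libraries. The first was lost when a stromal library or replicate 3 of the Sca-1- luminal group was left out, at adjusted p of 0.0565 to 0.119 among alternatives of 0.0101 to 0.119. The second was lost when any of 6 libraries was left out (both stromal and both basal libraries, replicate 2 of Sca-1+ luminal cells and replicate 1 of Sca-1- luminal cells), at adjusted p of 0.0544 to 0.196 among alternatives of 0.0167 to 0.196. The change between stromal and Sca-1+ luminal libraries was -0.44 (adjusted p = 0.158). Cd38 lies on chromosome 5 between Bst1, its closest relative, 24566 nt away, and Prom1, 81244 nt away. Bst1 had at most 0.12 FPKM in any library.

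Of 13 genes tested in the list of Cd38 and NAD metabolism, 2 were higher and 1 lower in Sca-1+ luminal than in Sca-1- luminal libraries, where 35.1% of all genes tested were called. Their median log2 change was -0.07, where that of all genes was 0.19. Nnmt, which methylates nicotinamide, averaged 6.53 FPKM in Sca-1+ luminal and 0.798 FPKM in Sca-1- luminal libraries (1.79, limma adjusted p = 0.0379). Its mean in stromal libraries was 24.1 FPKM, and its Sca-1+ luminal values of 9.47, 8.92 and 1.19 FPKM stood in the order of the fibroblast sums, whose part was not tested. The NAD-consuming polymerase gene Parp1 averaged 6.75 against 13.2 FPKM (-0.83, adjusted p = 0.0433). In basal against Sca-1- luminal libraries 1 was higher and 4 lower, where 46.1% of all genes tested were called. Among the lower were Parp1 (-1.81) and the NAD synthesis genes Nadsyn1 (-1.58) and Naprt (-1.13). The profiles closest to that of Cd38 were those of Adra1a, Rilp and Cdk14, at 0.16, 0.19 and 0.20, where Cd38 itself varied by 0.49 (SD, log2).

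Other surface antigens that have been used to sort prostate cells were set beside the 8 genes. Of 11 tested, among them the gate gene Ly6a, 9 were higher and 0 lower in Sca-1+ luminal than in Sca-1- luminal libraries, where 35.1% of all genes were called, with a median log2 change of 2.55, against 0.32 for the 8 genes and 0.19 for all genes tested. The list was chosen with earlier results of these data known, and Ly6a encodes the antigen that divided the groups. The count and the median are therefore descriptions. Psca changed by 5.00, Ly6a by 4.71 and Ly6d by 2.95. Psca had 465, 1386 and 3356 FPKM in Sca-1+ luminal libraries, highest where the fibroblast sum was lowest, against 39.4, 64.4 and 24.2 FPKM in Sca-1- luminal libraries. Nrp1, which encodes a co-receptor for semaphorins and vascular growth factors, had 27.7, 14.5 and 3.71 FPKM in the same Sca-1+ luminal replicates, highest where the fibroblast sum was highest, at means of 37.0 FPKM in stromal, 1.22 FPKM in basal and 0.857 FPKM in Sca-1- luminal libraries. Thy1, a fibroblast and lymphocyte antigen, averaged 12.4 FPKM in stromal, 0.327 FPKM in basal, 2.01 FPKM in Sca-1+ luminal and 0.227 FPKM in Sca-1- luminal libraries. The part of fibroblasts in these values was not tested.

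Within the Sca-1- luminal group the 8 genes did not vary together. Cd24a, Itga6, Epcam and Cd44 were lowest in replicate 3 and highest in replicate 2, whereas Prom1 and Dpp4 were highest in replicate 3 and lowest in replicate 2. The sum of 9 basal markers was 181, 293 and 41.0 FPKM in replicates 1, 2 and 3. The sum of 8 luminal markers was 4799, 9278 and 2400 FPKM in the same replicates. Both sums stood in the order of Cd24a, Itga6, Epcam and Cd44. The part of basal or luminal cells in the values of those genes was not tested. The summed level of 5 seminal vesicle secretory genes was 18886, 1401 and 42642 FPKM in replicates 1, 2 and 3, the same order as Prom1 and Dpp4, and 4020 to 7175 FPKM in Sca-1+ luminal libraries. The sum of 10 leukocyte markers, at 395, 107 and 501 FPKM in replicates 1, 2 and 3, also followed the order of Prom1 and Dpp4. The part of seminal vesicle RNA or of leukocytes in these values was not tested. Krt8, a luminal keratin, had 746, 2133 and 256 FPKM in the same replicates, in the order of Epcam.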

How the data were processed

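RNA of sorted prostate cells was primed with random and poly(dT) primers (NuGEN Ovation) and built into Illumina libraries, per the labels' protocols. The submitters' processing notes name bcl2fastq 1.8.3, TopHat and Cufflinks and the build mm10. For the last 2 tools the version, and for the libraries the strand, is not given in the sources used here. The deposited values are FPKM per UCSC transcript, as computed by the authors, and coverage per transcript, per the file headers, which entered no test. Transcripts (63241) were named by mm10 coordinates from GENCODE M21 and RefSeq GRCm38.p6, which gave 53007 (83.8%) a symbol. Those under 300 nt (8006) were left out, as were 7 genes with a failed estimate, and FPKM was summed per gene.

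The 4 groups were fitted together with limma 3.58.1 (R 4.3.3, eBayes with trend) on log2(FPKM + 1), and the fit was tested on simulated data. FPKM are not counts, so no count model was used. Depth was read from low values, 88.1% to 91.0% of which lay within 0.05 of a whole fragment. The members and lists were chosen with earlier results of these data known. Named genes are the 8 members, up to 4 called genes per list and comparison with the largest change or the ligand, relative or splicing factor of a list, the 3 nearest profiles per member, and gate and cell type markers. Alternatives were the pseudocount (0.1, 5), no filter, median-of-ratios and quantile scaling, no trend, all transcript lengths, fits of 2 groups and leaving out libraries; leaving out Sca-1+ luminal replicates 1 and 2 together was chosen after seeing the data. Replicates were numbered in the order listed.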

Additional observations from a re-analysis of the deposited data

How the results depend on the processing

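Over 48 changes (8 genes in 6 comparisons) and 19 alternatives, 817 values kept their direction and side of the threshold, 67 lost a call, 7 gained one and 21 changed sign, and no value that changed sign was called. For Epcam these were, in Sca-1+ luminal against Sca-1- luminal libraries, -0.18 with median-of-ratios scaling and -0.58 to 0.60 on leaving out each library (below 0 without Sca-1+ luminal replicates 2 or 3 or Sca-1- luminal replicate 3); in basal against Sca-1- luminal libraries, -0.60 to 0.53 on leaving out each library (below 0 without basal replicate 2 or Sca-1- luminal replicate 3); and in basal against Sca-1+ luminal libraries, 0.35 and 0.21 with median-of-ratios and quantile scaling and -0.58 to 0.36 on leaving out each library (above 0 without basal replicate 1, or replicates 2 or 3 of Sca-1+ luminal cells). Dpp4 in stromal against Sca-1+ luminal libraries was 0.15 and 0.11 with median-of-ratios and quantile scaling, -0.88 to 0.63 on leaving out each library (above 0 without stromal replicate 2 or the first Sca-1+ luminal replicate), and 0.19 where Sca-1+ luminal replicate 3 stood alone. In basal against Sca-1+ luminal libraries Cd44 was 0.16 with median-of-ratios scaling and Kit 0.23 with quantile scaling. On leaving out each library, Kit was -0.21 to 0.16 in stromal against Sca-1- luminal libraries (above 0 without Sca-1- luminal replicate 1) and Cd38 was -0.28 to 0.015 in basal against Sca-1- luminal libraries (above 0 without basal replicate 1). Last, Cd24a was 0.66 in Sca-1+ luminal against Sca-1- luminal libraries with Sca-1+ luminal replicate 3 alone. Of genes called, leaving out each library gave 2700 to 5216 in Sca-1+ luminal against Sca-1- luminal, 3752 to 6407 in basal against Sca-1- luminal, 664 to 3574 in basal against Sca-1+ luminal, 380 to 3027 in stromal against Sca-1+ luminal and 1180 to 3566 in stromal against basal libraries, against 4364, 5734, 2459, 1656 and 2800 with all libraries. Of the 8 members, leaving out a library left 0 to 3 called in stromal against Sca-1+ luminal and 3 to 7 in stromal against basal libraries. Fits of 2 groups alone called 1264 genes in basal against Sca-1+ luminal and 616 in stromal against Sca-1+ luminal libraries, with 1 of the 8 members. With Sca-1+ luminal replicate 3 alone, 2045 genes were called against Sca-1- luminal and 3835 in stromal against Sca-1+ luminal libraries; a lone library is taken to vary like the other groups. The cause of these moves was not tested. The median log2 change over all genes moved under the scalings, in Sca-1+ luminal against Sca-1- luminal libraries to 0.02 (median-of-ratios) and -0.08 (quantile), against 0.19 as deposited, and the share of called genes that were higher to 46.5% and 40.4%, against 62.1%. In basal against Sca-1+ luminal libraries that share was 47.1% and 53.0%, against 22.2%, at medians of -0.02 and 0.08, against -0.29, and in stromal against Sca-1+ luminal libraries 32.5% and 37.5%, against 13.2%, at medians of 0.06 and 0.06, against -0.16. No paired analysis was run, because the labels carry no replicate numbers and name no shared mouse, sort or batch. Depth limits Kit and Cd38 most, at an estimated 20 to 180 and 6 to 141 fragments per library.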
